A study of Mus musculus with 9 samples.

Results

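The complement genes of the liver were examined as 34 members among the 56748 genes of the count table: 30 soluble components and regulators, 2 membrane regulators and 2 receptors for cleaved fragments. They were taken by gene symbol as known components, regulators and receptors by a rule that uses no measured value, though earlier results of these data were known when they were chosen, and all 34 symbols were found. By the cell that is known to make them, 22 were taken as hepatocyte genes, 7 as macrophage genes and 5 as genes of other or broad origin. RNA was sequenced in bulk from liver tissue of 9 mice, 3 per group, of the strain C57BL/6 by their labels and C57BL/6J by the methods of the study. The mice were 7 to 8 weeks old when purchased, also by the methods. The same strain was used in all groups, so the groups differed in treatment and not in genotype. Mice of the DSS group drank 1.8% dextran sulfate sodium, which injures the colon epithelium, in 3 cycles of 1 week followed by 1 week of recovery, and were given 200 µL of water by mouth each day. Mice of the Indirubin group had the same cycles and were given 1 g/kg/day of indirubin, an indigoid of the herbal preparation indigo naturalis, in the same volume. Mice of the Control group are labelled as given water. Since the design text of the series describes DSS cycles for all mice, it cannot be told with certainty whether the Control mice drank DSS, and comparisons with them are read as labelled.

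Complement is a cascade of plasma proteins that marks microbes and damaged cells for removal. It starts by the classical route, in which C1q binds antibody or debris and activates the proteases C1r and C1s, by the lectin route, in which mannose-binding lectins, ficolins and collectins bind sugars and activate the MASP proteases, or by the alternative route of factor B, factor D and properdin. All routes cleave C3, and cleavage of C5 then releases C5a and lets C5b assemble with C6, C7, C8 and C9 into the membrane attack complex. Hepatocytes secrete most of these proteins, and many of them belong to the acute-phase response, while C1q and properdin are made mainly by macrophages and other myeloid cells.

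Some features of the libraries bear on every value given here. Total counts were 6514863 to 7944684 per library, but 71.6 to 91.3% of them were mitochondrial, so that 569044 to 2132208 nuclear counts were left, and precision was limited by these numbers. The mitochondrial share was lowest in Indirubin-2, DSS-3 and Indirubin-3. Hepatocyte markers were detected in every library (11 of 11 markers measured), as the tissue label requires. Indirubin-1 stood apart from the other Indirubin libraries. Its summed level of 18 acute-phase genes was 2993 normalized CPM, against 17426 and 26389.6 in Indirubin-2 and Indirubin-3, 2674 to 4363 in Control and 6880.5 to 31309.8 in DSS. Its summed level of 12 pancreatic acinar markers was 9.51, against 849 and 1076 in the other Indirubin libraries, 8.41 to 20.9 in Control and 0 to 3.07 in DSS. All 12 acinar markers were detected in Indirubin-2 and Indirubin-3, and all 12 were at 0 in DSS-2. In other genes, picked after their values were seen, it lay with Indirubin-2 and Indirubin-3 and outside the range of all 6 Control and DSS libraries (lower for Masp2, higher for Cebpb and Vsig4). No gene was targeted in this design, and whether its label is right was not tested further. It was used as labelled, and the counts of calls and the log2 fold changes of the members called are also given without it. What part the acute-phase and acinar reads had in the results was not tested. In bulk tissue, fewer cells of a type and less RNA per cell cannot be told apart. Levels are given as normalized CPM, CPM divided by TMM factors over all 9 libraries, always in the order of replicates 1, 2 and 3.

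Per kilobase of gene, over all 9 libraries, Vtn and C3 stood highest among the 34 genes (341 and 319 RPKM), followed by Clu (78.5), C4b (64.5), Serping1 (52.4), Cfi (39.2) and C9 (28.5). The chains of C1q stood at 15.4 RPKM for C1qa, 20.1 for C1qb and 8.70 for C1qc. At the low end were Cfd (0.0933), C5ar1 (0.204), Cfb (0.254), C3ar1 (0.414), Cd55 (0.534) and C7 (0.640), which rest on few reads. The filter on low counts kept 30 members for DSS against Control and 31 for each comparison with Indirubin. Cfd, C7 and C5ar1 were not tested in any comparison, and Cfb was not tested in DSS against Control. Differences are log2 fold changes ± SE from edgeR's quasi-likelihood test, and adjusted p is by Benjamini-Hochberg over all genes tested.

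The first comparison asked what indirubin added to colitis. Between Indirubin and DSS, 4 of 6 tested terminal pathway genes and the mannose-binding lectin genes with their protease Masp2 were lower, and 2 of the 3 C1q chains were higher, all at the unadjusted threshold only. At an unadjusted p under 0.05, 7 of 31 members were lower (22.6%, against 3.22% of the 9117 genes tested) and 2 were higher (6.45%, against 4.44%), or 29.0% in either direction against 7.67% of all genes. Scaled by library size alone, 3 were lower and 2 higher, where 5.58% of all genes passed in either direction. No member passed an adjusted p under 0.05 with edgeR's quasi-likelihood test, as with all genes (0 of 9117, 0%), where 699 genes had an unadjusted p under 0.05; the DESeq2 Wald test called 1 member, Masp2, lower (adjusted p = 0.0286) and 80 genes in all. The 3 libraries of each group did not overlap for 5 members that were lower (16.1%, against 5.93% of all genes) and 2 that were higher (6.45%, against 10.5%). The median log2 fold change was -0.47 over the members and 0.15 over all genes, of which 56.7% were above 0. By origin, 19 of 22 hepatocyte genes lay below 0 (median -0.84) and 6 of 6 macrophage genes tested lay above 0 (median 1.08). Outside the members, 10 of 11 hepatocyte markers (median -0.72) and 15 of 18 acute-phase genes (median -0.33) also lay below 0. Of 10 Kupffer cell and macrophage markers, 6 lay above 0 (median 0.33). Scaling by library size alone moved the median of all genes to 0.42 in this comparison, 0.69 in DSS against Control and 1.09 in Indirubin against Control. Relative to it the hepatocyte genes lay at -1.02 and the macrophage genes at 1.03 in Indirubin against DSS.

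These counts moved with single libraries. Of the 31 members, 12 had an unadjusted p under 0.05 without Indirubin-1 (3 higher and 9 lower), and C9 and C8g then passed an adjusted p under 0.05 (0.008 and 0.00686). Calls rose over the whole table in that fit, where 10.4% of the 10817 genes tested had an unadjusted p under 0.05 and 134 passed an adjusted p under 0.05. The number of members was 14 without DSS-1 (10.5% of all genes), 4 without DSS-2 (8.44%), 4 without DSS-3 (9.77%), 3 without Indirubin-2 (5.28%) and 4 without Indirubin-3 (4.89%). Masp2, C8a and C1qb kept an unadjusted p under 0.05 in each of these 6 fits. Without Indirubin-1 the log2 fold change against DSS was -1.48 for Hc, -1.82 for C8a and -1.39 for C8b among the terminal genes, and -2.50 for Masp2, -1.79 for Mbl1 and -1.60 for Mbl2 among the lectin genes. It was 1.51 for C1qb, 1.31 for C1qc and 1.14 for C1qa, and C1qa then had an unadjusted p of 0.0116.

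The second comparison asked what the DSS cycles changed on their own. In DSS against Control, C3 and the fluid-phase regulators Vtn and Serping1 were higher and Colec11 and C6 lower, at the unadjusted threshold. Of 30 members tested, 3 were higher (10%, against 3.46% of the 7482 genes tested) and 2 lower (6.67%, against 4.05%), or 16.7% in either direction against 7.51%. Scaled by library size alone, 7 were higher and 1 lower (12.2% of all genes passed in either direction), and with all 9 libraries in one fit 0 were higher and 2 lower, so the calls of C3, Vtn and Serping1 were lost there. No member passed an adjusted p under 0.05 with edgeR, where 53 of all genes did (0.708%). Colec11 came nearest (adjusted p = 0.069). It was the only member that the DESeq2 Wald test called (adjusted p = 0.00264), with 143 genes called in all. No member was higher without overlap between the groups (against 7.11% of all genes), and 3 were lower without overlap (10%, against 8.54%): Colec11, Fcna and C3ar1. The median log2 fold change was -0.08 over the members and 0.01 over all genes, with 11 of 30 members above 0 against 50.6% of all genes. Without DSS-1, 9 members had an unadjusted p under 0.05 (7 higher, 2 lower, with 7.72% of all genes in either direction). Colec11 then passed an adjusted p under 0.05 (0.0489), where 64 of the 8032 genes tested did. The number was 2 without Control-1, 2 without Control-2, 2 without Control-3, 3 without DSS-2 and 3 without DSS-3, where 4.88 to 7.67% of all genes passed.

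The third comparison set the Indirubin group against Control. Of 31 members tested, 10 were lower at an unadjusted p under 0.05 (32.3%, against 6.38% of the 8059 genes tested). Another 1, Cfb, was higher (3.23%, against 7.45%), together 35.5% against 13.8%. Scaled by library size alone, where the median of all genes was 1.09, 0 were lower and 6 higher. In that fit 27.2% of all genes passed in either direction. Of the 10 that were lower with TMM scaling, 5 belong to the terminal pathway (Hc, C6, C8a, C8b, C9), 4 to the lectin pathway (Masp2, Mbl1, Mbl2, Colec11) and 1, Cfhr2, to the fluid-phase regulators. No member passed an adjusted p under 0.05 with edgeR, where 19 of all genes did (0.236%). The DESeq2 Wald test called Hc and C8a lower (adjusted p = 0.0185 and 0.0153) and 316 genes in all. Groups did not overlap for 8 members that were lower (25.8%, against 9.27% of all genes) and 1 that was higher (3.23%, against 12.3%). The median log2 fold change was -0.29 over the members and 0.12 over all genes, with 10 of 31 members above 0 against 55.5% of all genes. Without Indirubin-1, 14 of 32 members had an unadjusted p under 0.05 (3 higher, 11 lower), and 6 passed an adjusted p under 0.05, all lower: Hc (0.00464), C8a (0.0049), C8b (0.0111), C8g (0.00174), C9 (0.000882) and Cfhr2 (0.0487). In that fit 17.5% of the 9721 genes tested had an unadjusted p under 0.05, and 465 passed an adjusted p under 0.05. The log2 fold change was then -1.73 for Hc, -1.92 for C8a, -1.60 for C8b, -3.10 for C8g and -1.39 for C6, -1.88 for Masp2, -1.46 for Mbl1, -1.54 for Mbl2 and -1.24 for Colec11, and -1.36 for Cfhr2. The number at the unadjusted threshold was 6 without Control-1, 5 without Control-2, 10 without Control-3, 6 without Indirubin-2 and 7 without Indirubin-3, where 9.58 to 13.6% of all genes passed. Without Indirubin-1, C3 (0.77, unadjusted p = 0.0465) and C1qa (0.85, unadjusted p = 0.0238) were higher at that threshold beside Cfb, whose log2 fold change was 3.85. Each pair of comparisons shares 3 libraries, so the values of a gene in them are given side by side and not as separate evidence.

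**Figure D1:**
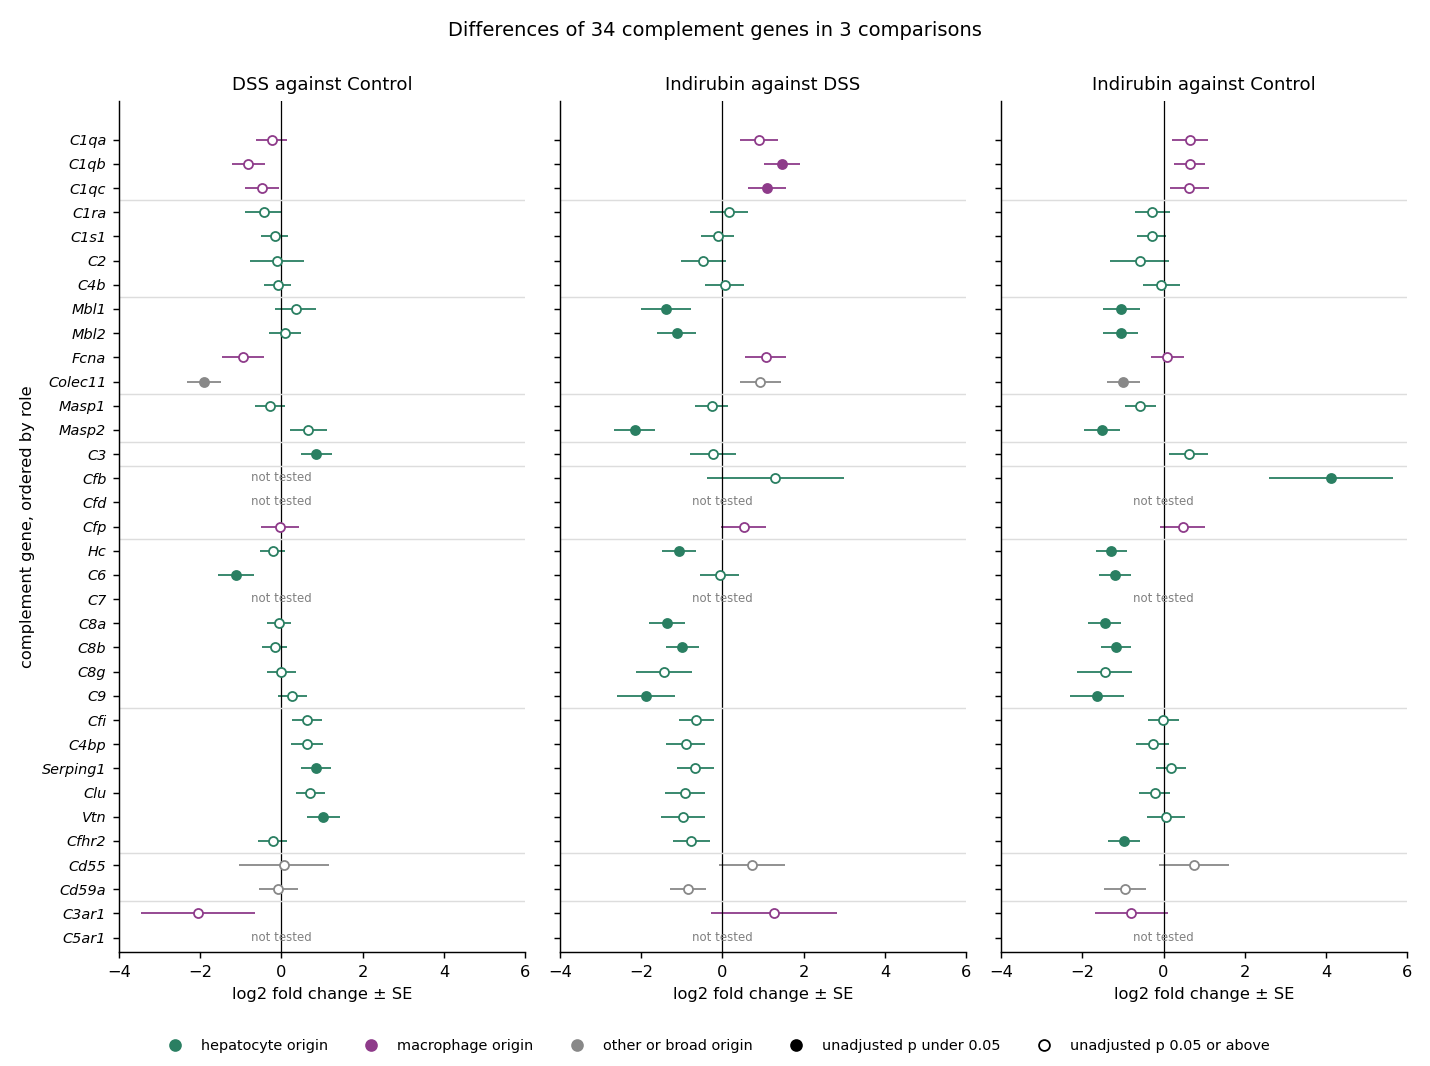
Log2 fold change ± SE (x axis) of each complement gene (y axis, ordered by role, grey lines between roles) in the 3 comparisons. Colour gives the origin of the gene, and filled points mark an unadjusted p under 0.05. The terminal pathway genes lie near 0 in DSS against Control, apart from C6 at -1.12, and all 6 tested lie below 0 in both comparisons with Indirubin (5 of 6 against DSS when scaled by library size alone).

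The terminal pathway genes encode the proteins that C5 cleavage leads to. Hc encodes C5 (ENSMUSG00000026874, chromosome 2, 34873343 to 34951450, minus strand, GRCm39), whose cleavage gives the chemoattractant C5a. Its level was 136, 177 and 151 in Control, 90.6, 140.1 and 161 in DSS and 87.1, 49.3 and 51.4 in Indirubin. The 3 Indirubin libraries lay below every DSS and every Control library. The log2 fold change was -1.06 ± 0.42 (unadjusted p = 0.0264, adjusted p = 0.574) against DSS, -1.29 ± 0.38 (unadjusted p = 0.00523, adjusted p = 0.159) against Control and -0.22 ± 0.30 for DSS against Control. The unadjusted call was kept in every fit that left out 1 library against Control. Against DSS it was lost without DSS-2, DSS-3, Indirubin-2 or Indirubin-3, where the log2 fold change was -1.08 to -0.89.

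C8a and C8b, which encode the alpha and beta chains of C8, gave the same order. C8a (ENSMUSG00000035031, chromosome 4, 104672876 to 104733595, minus strand) stood at 117, 125 and 99.4 in Control, 73.04, 115 and 130.3 in DSS and 58.5, 24.6 and 40.2 in Indirubin, and its Indirubin libraries were the lowest 3 of all 9. It differed by -1.37 ± 0.44 (unadjusted p = 0.00884, adjusted p = 0.471) between Indirubin and DSS and by -1.45 ± 0.40 (unadjusted p = 0.00322, adjusted p = 0.136) between Indirubin and Control, and kept an unadjusted p under 0.05 in every fit that left out 1 library of either comparison. C8b (ENSMUSG00000029656, chromosome 4, 104623514 to 104661745, plus strand) stood at 71.1, 58.2 and 54.1 in Control, 36.2, 54.2 and 69.2 in DSS and 36.9, 22.4 and 21.2 in Indirubin. Indirubin-1 lay just above DSS-1, so the groups overlapped, while every Indirubin library was below every Control library. Its log2 fold change was -0.99 ± 0.41 (unadjusted p = 0.0336, adjusted p = 0.605) against DSS, a call that was lost without DSS-2, DSS-3, Indirubin-2 or Indirubin-3, where the log2 fold change was -1.05 to -0.76. Against Control it was -1.17 ± 0.37 (unadjusted p = 0.00767, adjusted p = 0.177), a call that was kept in every fit that left out 1 library. C8g encodes the gamma chain, a lipocalin that joins the alpha chain, and stood at 49.6, 71.99 and 32.00 in Control, 42.00, 35.99 and 72.2 in DSS and 43.3, 7.91 and 4.90 in Indirubin. Its level in Indirubin-1 was within the range of the other groups, and in Indirubin-2 and Indirubin-3 it was below all of them. With all libraries its log2 fold change was -1.43 ± 0.69 (unadjusted p = 0.0602, adjusted p = 0.683) against DSS, and without Indirubin-1 it was -3.06.

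C9, the subunit that polymerizes to close the pore, differed widely between the Indirubin libraries (ENSMUSG00000022149, chromosome 15, 6474808 to 6528232, plus strand). Its level was 67.98, 105 and 88.01 in Control, 51.3, 119 and 139.9 in DSS and 64.2, 13.5 and 6.71 in Indirubin. Indirubin-1 fell inside the range of the DSS libraries, and Indirubin-2 and Indirubin-3 were below every other library. It differed by -1.88 ± 0.72 (unadjusted p = 0.0223, adjusted p = 0.542) against DSS and -1.63 ± 0.66 (unadjusted p = 0.0297, adjusted p = 0.293) against Control. Without Indirubin-1 it was -3.46 and -3.21. The call against DSS was lost without DSS-2, DSS-3, Indirubin-2 or Indirubin-3, where the log2 fold change was -1.84 to -1.41. The call against Control was lost without Control-2, Control-3, Indirubin-2 or Indirubin-3, where the log2 fold change was -1.64 to -1.17. C6, which binds C5b, followed another course: it stood at 30.99, 39.2 and 16.7 in Control, 5.43, 15.5 and 18.1 in DSS and 13.4, 12.2 and 11.7 in Indirubin. The DSS and Indirubin libraries overlapped, and Control-3 was near both. Its log2 fold change was -1.12 ± 0.45 (unadjusted p = 0.0272, adjusted p = 0.543) for DSS against Control, -1.20 ± 0.39 (unadjusted p = 0.00974, adjusted p = 0.188) for Indirubin against Control and -0.07 ± 0.48 for Indirubin against DSS. The call in DSS against Control was lost without Control-1, Control-2 or DSS-1, where the log2 fold change was -1.10 to -0.76. The call in Indirubin against Control was lost without Control-2, where the log2 fold change was -0.96. C7 had 41, 4 and 2 in Control, 0, 0 and 7 in DSS and 0, 8 and 58 in Indirubin as raw counts and was not tested.

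Summed over the 6 hepatocyte genes of the terminal pathway, the level was 473, 577 and 441 normalized CPM in Control, 299, 479.6 and 590.3 in DSS and 303, 129.9 and 136 in Indirubin. Indirubin-1 lay just above DSS-1, and Indirubin-2 and Indirubin-3 were the lowest 2 of the 9 libraries. The same reads were set against albumin, the most abundant hepatocyte secretory transcript, within each library, which needs no scaling between libraries. There were 39.6 to 59.03 terminal reads per 1000 Alb reads in Control, 45.8 to 85.00 in DSS and 24.3 to 39.1 in Indirubin. The Indirubin libraries lay below all others (two-sided exact permutation p = 0.1 against DSS and against Control, the smallest that 3 against 3 allows, and 0.3 after adjustment over the 30 tests of 10 ratios). The sum of 11 hepatocyte markers was 11188 to 18667 in Control, 9175 to 17144 in DSS and 6574 to 10521 in Indirubin, with all 11 detected throughout, and 10 of the 11 had a log2 fold change below 0 in Indirubin against DSS (median -0.72, 1 lower at the unadjusted threshold). What part this had in the terminal genes was not tested.

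**Figure D2:**
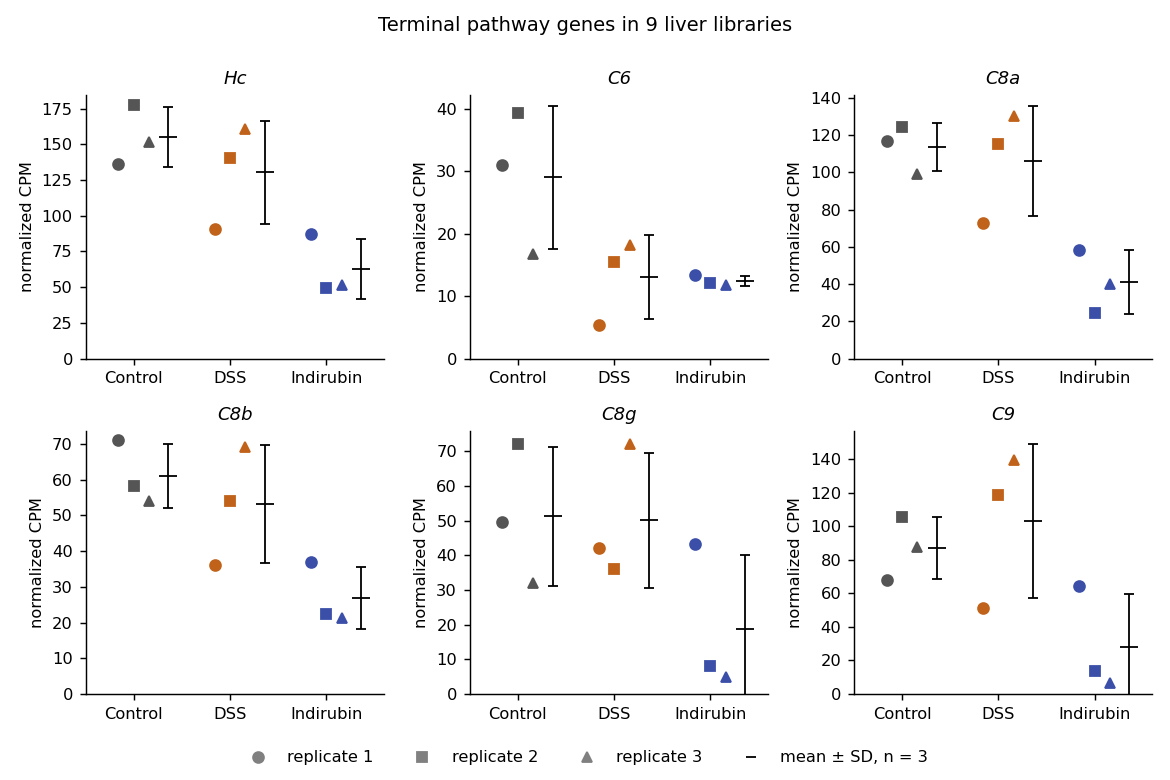
Normalized CPM (y axis) of 6 terminal pathway genes in Control, DSS and Indirubin (x axis). Points are libraries, with a symbol for each replicate number, and the black bar is the mean ± SD of 3 libraries. Indirubin-2 and Indirubin-3 are the lowest points for Hc, C8a, C8b, C8g and C9, and Indirubin-1 lies between them and the other groups or among the other groups.

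Promoters are shown for Hc, C8a, C8b and C9, the terminal pathway genes that were lower at the unadjusted threshold in both comparisons with Indirubin. RefSeq promoters of build GRCm38.p6 were found for 26 of the 34 members, and the 250 bases before the annotated start are given 5′ to 3′ on the strand of the gene. The half-site GTTAAT of hepatocyte nuclear factor 1, searched on both strands (ATTAAC on the other), is in capitals in those of Hc (chr2:35061413-35061662, minus strand), C8a (chr4:104876399-104876648, minus strand) and C8b (chr4:104766067-104766316, plus strand).
Hc: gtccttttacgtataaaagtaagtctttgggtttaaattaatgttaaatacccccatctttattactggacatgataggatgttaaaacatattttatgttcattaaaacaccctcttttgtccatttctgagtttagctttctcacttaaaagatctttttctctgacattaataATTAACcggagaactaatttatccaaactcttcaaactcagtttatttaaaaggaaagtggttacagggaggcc
C8a: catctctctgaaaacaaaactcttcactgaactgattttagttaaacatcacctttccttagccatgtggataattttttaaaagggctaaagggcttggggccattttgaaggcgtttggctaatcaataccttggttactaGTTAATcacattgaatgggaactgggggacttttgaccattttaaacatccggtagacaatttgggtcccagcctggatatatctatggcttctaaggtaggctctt
C8b: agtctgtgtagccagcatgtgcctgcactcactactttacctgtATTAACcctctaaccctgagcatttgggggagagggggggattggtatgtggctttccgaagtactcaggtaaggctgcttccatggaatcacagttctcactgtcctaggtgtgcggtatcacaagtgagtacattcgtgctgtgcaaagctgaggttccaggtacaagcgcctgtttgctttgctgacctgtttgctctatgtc
The half-site was in 7 of the 15 matched promoters of hepatocyte genes (Hc, C8a, C8b, C1ra, C4bp, Vtn and Cfhr2), in 1 of 6 of macrophage genes, and in 6.52% of all 27025 promoters of the same length. Vtn, C1ra and C4bp hold it too and did not pass the unadjusted threshold in either comparison with Indirubin, and neither did Cfhr2 against DSS. The promoter of C7, a terminal gene of broad origin that was not tested, also holds it. The promoters of C6, C8g and C9 did not hold these letters in the window. That of C9 held instead the letters TTGCNNAA, a C/EBP motif found in 9.55% of all promoters (chr15:6445096-6445345, plus strand, capitals mark the motif).
C9: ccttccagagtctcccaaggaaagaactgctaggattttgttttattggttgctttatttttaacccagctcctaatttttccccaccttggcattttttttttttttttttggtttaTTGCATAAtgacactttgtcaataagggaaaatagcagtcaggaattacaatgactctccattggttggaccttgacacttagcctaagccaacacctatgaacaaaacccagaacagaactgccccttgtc
The same C/EBP letters were in 3 of the 15 hepatocyte promoters (C9, C3 and C1s1).

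The lectin pathway begins with proteins that recognise sugars on microbes. Mbl1 and Mbl2 encode the mannose-binding lectins A and C of the mouse, both made by hepatocytes. Mbl1 stood at 39.9, 32.8 and 18.4 in Control, 10.97, 33.2 and 70.6 in DSS and 20.1, 7.18 and 16.7 in Indirubin. DSS-3 was the highest library, and Indirubin overlapped with both groups. Its log2 fold change was -1.39 ± 0.61 (unadjusted p = 0.0421, adjusted p = 0.627) for Indirubin against DSS and -1.04 ± 0.45 (unadjusted p = 0.0408, adjusted p = 0.326) against Control. The call against DSS was lost without DSS-2, DSS-3, Indirubin-2 or Indirubin-3, where the log2 fold change was -1.57 to -0.60. The call against Control was lost without Control-1, Control-2 or Indirubin-2, where the log2 fold change was -1.01 to -0.71. Mbl2 stood at 34.9, 45.02 and 18.9 in Control, 24.8, 23.1 and 54.9 in DSS and 22.9, 13.1 and 11.2 in Indirubin. Every Indirubin library was below every DSS library, and Indirubin-1 was above Control-3. Its log2 fold change was -1.13 ± 0.47 (unadjusted p = 0.0325, adjusted p = 0.601) against DSS and -1.05 ± 0.43 (unadjusted p = 0.0301, adjusted p = 0.296) against Control. The first call was lost without DSS-3, Indirubin-2 or Indirubin-3, where the log2 fold change was -1.02 to -0.62. The second was lost without Control-1, Control-2, Indirubin-2 or Indirubin-3, where the log2 fold change was -1.04 to -0.79.

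Masp2 encodes the protease that cleaves C4 and C2 once a lectin has bound (ENSMUSG00000028979, chromosome 4, 148687011 to 148699956, plus strand, GRCm39). It had the largest log2 fold change of the tested members in Indirubin against DSS, among those past the unadjusted threshold. Its level was 24.98, 16.99 and 9.46 in Control, 10.9, 34.8 and 34.1 in DSS and 7.87, 4.32 and 5.76 in Indirubin. All 3 Indirubin libraries were below the other 6. The log2 fold change was -2.16 ± 0.51 (unadjusted p = 0.00116, adjusted p = 0.422) against DSS, with a range of -2.64 to -1.94 as each library was left out, and -1.51 ± 0.45 (unadjusted p = 0.00595, adjusted p = 0.166) against Control. Masp1, which activates Masp2, stood at 29.6, 33.6 and 16.7 in Control, 14.4, 28.05 and 21.6 in DSS and 14.4, 15.99 and 22.4 in Indirubin, with overlap in every comparison and a log2 fold change of -0.27 ± 0.41 for Indirubin against DSS. Within a library there were 84.3, 50.5 and 56.5 Masp2 reads per 100 Masp1 reads in Control, 75.4, 124 and 158 in DSS and 54.4, 27.04 and 25.7 in Indirubin. The ratio did not overlap between Indirubin and DSS (exact permutation p = 0.1, adjusted over the 30 tests 0.3) and overlapped between Indirubin and Control (exact permutation p = 0.2). The Masp2 promoter (chr4:148602294-148602543, plus strand) held the STAT letters TTCNNNGAA, in capitals here, which 7.18% of all promoters and 2 of the 15 of hepatocyte genes (Masp2 and C8a) hold.
Masp2: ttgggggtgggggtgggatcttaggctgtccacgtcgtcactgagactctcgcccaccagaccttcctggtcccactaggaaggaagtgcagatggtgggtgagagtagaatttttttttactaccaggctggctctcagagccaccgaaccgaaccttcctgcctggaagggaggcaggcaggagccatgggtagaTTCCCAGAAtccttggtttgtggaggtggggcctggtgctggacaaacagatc

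Of the other lectin genes, Colec11 was lower with DSS at the unadjusted threshold. Colec11 encodes collectin-11, a lectin of the same fold as the mannose-binding lectins that many tissues make (ENSMUSG00000036655, chromosome 12, 28644172 to 28673376, minus strand). It stood at 21.3, 17.5 and 20.6 in Control, 6.96, 4.94 and 3.55 in DSS and 11.5, 12.5 and 5.59 in Indirubin. The 3 Control libraries were above the other 6, and Indirubin-1 and Indirubin-2 lay between Control and DSS. The log2 fold change was -1.90 ± 0.42 (unadjusted p = 0.000535, adjusted p = 0.069) for DSS against Control, the smallest p of any member in this comparison, and it lay between -2.21 and -1.66 as each library was left out. For Indirubin it was -0.99 ± 0.40 (unadjusted p = 0.0308, adjusted p = 0.299) against Control, a call that was lost without Control-1, Control-3 or Indirubin-3, where the log2 fold change was -0.98 to -0.70. Against DSS it was 0.93 ± 0.51 (unadjusted p = 0.094, adjusted p = 0.755). Of 8 markers of stellate cells and fibroblasts, 7 or 8 were detected in each library, and their summed level was 99.6 to 174 in Control, 62.1 to 105 in DSS and 86.2 to 172 in Indirubin. In DSS against Control, 5 of the 7 tested were below 0 (median -0.90) and 2 were lower at the unadjusted threshold, Reln and Col3a1, against 4.05% of all genes. In Indirubin against Control, 4 of 7 were below 0 (median -0.65) and 3 were lower (Reln, Col3a1 and Lrat, against 6.38%). In Indirubin against DSS 6 of 8 were above 0 (median 0.54) and 1, Col1a1, was higher (against 4.44%). Without Indirubin-1, Dcn (0.97, unadjusted p = 0.0191) and Des (1.75, unadjusted p = 0.0467) were higher against DSS beside Col1a1, where 10.4% of all genes passed in either direction. The 7 sinusoidal endothelial markers summed to 31.5 to 58.9, 25.2 to 46.9 and 46.01 to 66.2 in Control, DSS and Indirubin, with 4 to 7 detected in each library and none past the unadjusted threshold in any comparison by edgeR's quasi-likelihood test. What part the makeup of the tissue had in the Colec11 levels was not tested. Fcna encodes ficolin A, which liver macrophages make. It stood at 12.2, 7.53 and 7.76 in Control, 6.14, 2.82 and 4.82 in DSS and 12.3, 8.48 and 8.26 in Indirubin. Its DSS libraries were the lowest 3 of 9, and the Control and Indirubin libraries were interleaved. Fcna differed by -0.95 ± 0.51 (unadjusted p = 0.0864, adjusted p = 0.762) for DSS against Control and 1.06 ± 0.50 (unadjusted p = 0.055, adjusted p = 0.671) for Indirubin against DSS, neither past the threshold, and 0.09 ± 0.41 for Indirubin against Control.

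**Figure D3:**
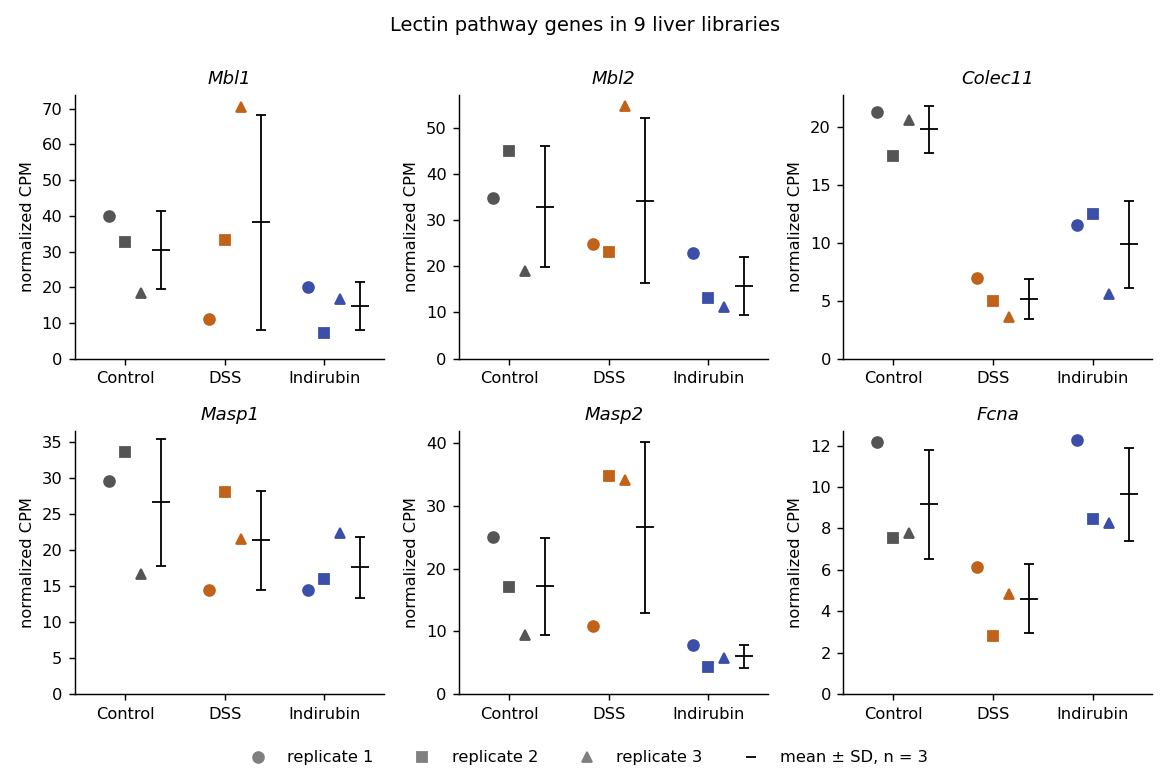
Normalized CPM (y axis) of 6 lectin pathway genes in Control, DSS and Indirubin (x axis), with a symbol for each replicate number and the mean ± SD of 3 libraries as a black bar. The Indirubin points of Masp2 are the lowest 3, and the Control points of Colec11 are the highest 3.

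C1qa, C1qb and C1qc encode the 3 chains of C1q, the recognition protein of the classical pathway, and lie side by side on the minus strand of chromosome 4, from 136607440 to 136626114 (GRCm39). C1qb stood at 14.5, 22.2 and 26.7 in Control, 13.1, 6.35 and 15.7 in DSS and 25.8, 41.9 and 30.1 in Indirubin. Every Indirubin library was above every DSS library, and the Control libraries lay between or among them. C1qc stood at 8.71, 19.3 and 19.2 in Control, 8.14, 12.9 and 12.3 in DSS and 11.5, 36.9 and 22.3 in Indirubin, where Indirubin-1 was within the DSS range. C1qa stood at 12.8, 14.01 and 16.2 in Control, 14.6, 10.9 and 9.92 in DSS and 9.51, 28.5 and 27.5 in Indirubin, and Indirubin-1 was the lowest library of the 9. Between Indirubin and DSS the log2 fold change was 1.47 ± 0.44 (unadjusted p = 0.00576, adjusted p = 0.434) for C1qb, 1.09 ± 0.47 (unadjusted p = 0.0393, adjusted p = 0.627) for C1qc and 0.89 ± 0.47 (unadjusted p = 0.0819, adjusted p = 0.74) for C1qa. The C1qb call was kept in every fit that left out 1 library. The C1qc call was lost without DSS-1, DSS-2, DSS-3, Indirubin-2 or Indirubin-3, where the log2 fold change was 0.61 to 1.16. In DSS against Control all 3 chains were below 0 (-0.24, -0.82 and -0.47), and in Indirubin against Control all 3 were above 0 (0.65, 0.65 and 0.63), with none past the threshold (scaled by library size alone, 2 of the 3 were above 0 in DSS against Control and all 3 above 0 in Indirubin against Control).

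Summed, the C1q chains were at 36.02, 55.5 and 62.1 normalized CPM in Control, 35.9, 30.2 and 37.9 in DSS and 46.8, 107 and 79.9 in Indirubin. All Indirubin libraries lay above all DSS libraries. The summed level of 10 Kupffer cell and macrophage markers was 90.7 to 174 in Control, 135 to 163 in DSS and 171 to 209.9 in Indirubin, with 9 or 10 of the 10 detected in each library. Of these markers, 3 were higher at the unadjusted threshold in Indirubin against DSS (Cd163, Marco and Vsig4, against 4.44% of all genes), 6 were above 0 and 4 below 0, and the median log2 fold change was 0.33. Without Indirubin-1, Cd163 and Marco kept that call and Vsig4 lost it. Clec4f, the lectin that defines resident Kupffer cells, stood at 24.2, 30.7 and 17.3 in DSS and 19.6, 25.9 and 14.1 in Indirubin, with overlap. Per unit of the macrophage sum, the C1q sum was 0.320 to 0.684 in Control, 0.186 to 0.265 in DSS and 0.274 to 0.516 in Indirubin. On this ratio the DSS libraries were below all others (exact permutation p = 0.1 against Control and against Indirubin, 0.3 after adjustment over the 30 tests). Per Clec4f instead, the C1q sum was 1.09 to 3.28 in Control, 0.983 to 2.19 in DSS and 2.39 to 5.66 in Indirubin. On that ratio DSS overlapped with Control (exact permutation p = 0.7) and lay below every Indirubin library (exact permutation p = 0.1, 0.3 after adjustment). Monocyte markers summed to 12.9 to 13.4 in DSS and 16.8 to 56.2 in Indirubin, with 2 to 3 and 4 to 5 of 5 detected per library. Neutrophil markers summed to 11.5 to 17.3 and 26.2 to 242, with 2 to 4 and 5 to 7 of 8 detected. Only 2 markers of each list passed the filter on low counts. Plac8 made up most of the monocyte sum, and S100a8 and S100a9 most of the neutrophil sum. What part the makeup of the tissue had in the C1q levels was not tested.

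**Figure D4:**
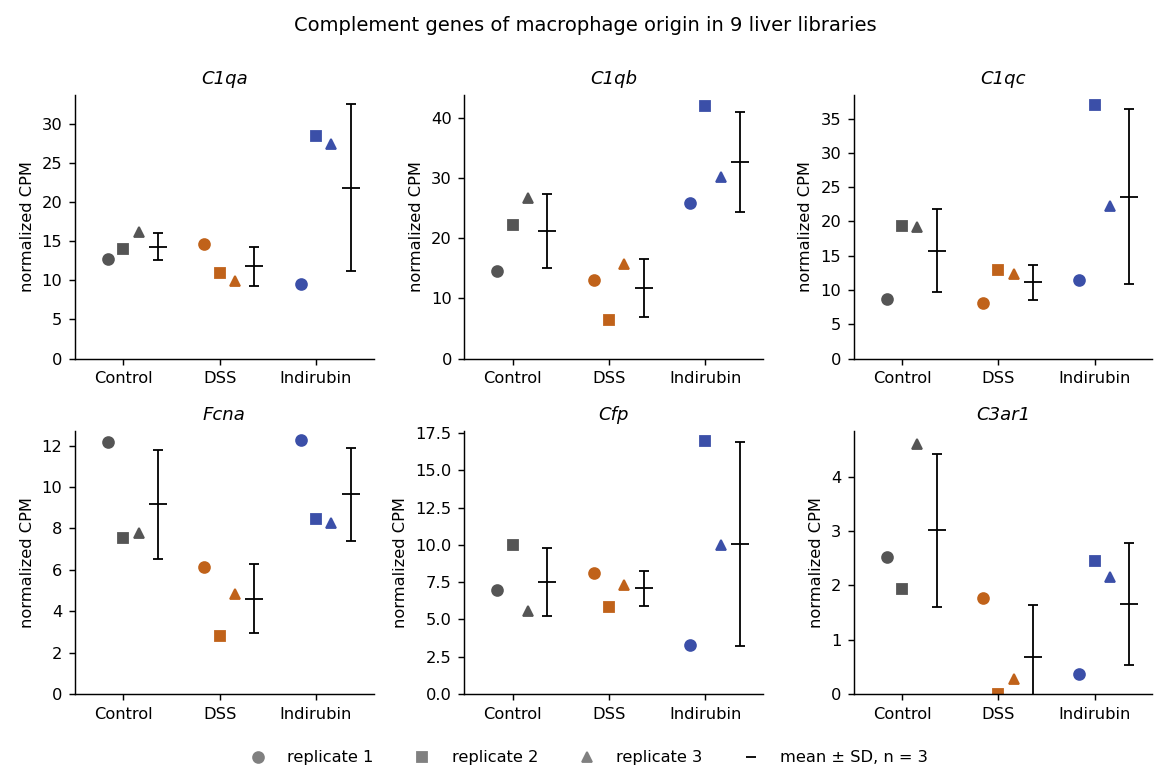
Normalized CPM (y axis) of 6 complement genes of macrophage origin in Control, DSS and Indirubin (x axis), with a symbol for each replicate number and the mean ± SD of 3 libraries as a black bar. For C1qb and Fcna every Indirubin point is above every DSS point.

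The promoters of C1qb (chr4:136886201-136886450, minus strand) and Fcna (chr2:25627975-25628224, minus strand) are shown for contrast with those of the hepatocyte genes. Capitals mark the letters GAGGAA, a motif of the myeloid factor PU.1 (TTCCTC on the other strand), which was in 3 of the 6 matched promoters of macrophage genes (C1qb, C1qc and Fcna), in 0 of 15 of hepatocyte genes and in 23.1% of all promoters.
C1qb: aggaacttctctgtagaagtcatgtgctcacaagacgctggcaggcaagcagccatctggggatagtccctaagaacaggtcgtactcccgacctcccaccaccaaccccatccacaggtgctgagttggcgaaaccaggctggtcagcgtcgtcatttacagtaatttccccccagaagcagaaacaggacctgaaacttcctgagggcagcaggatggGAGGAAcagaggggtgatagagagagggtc
Fcna: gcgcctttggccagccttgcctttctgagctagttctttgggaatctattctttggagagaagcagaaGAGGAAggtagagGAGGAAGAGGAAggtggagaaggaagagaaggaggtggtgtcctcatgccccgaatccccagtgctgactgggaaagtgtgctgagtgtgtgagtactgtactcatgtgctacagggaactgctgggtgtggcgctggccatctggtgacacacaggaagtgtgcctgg
An NF-kB motif was in 4 of the 6 macrophage promoters, 1 of the 15 hepatocyte promoters (C3) and 45.4% of all. These matches are a description of the letters and show no binding.

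The other macrophage genes had few reads. Cfp encodes properdin, which stabilizes the alternative convertase, and stood at 6.97, 9.98 and 5.58 in Control, 8.14, 5.82 and 7.28 in DSS and 3.29, 16.96 and 9.98 in Indirubin, with overlap in every comparison. C3ar1, the receptor of C3a, stood at 2.52, 1.93 and 4.61 in Control, 1.77, 0 and 0.273 in DSS and 0.366, 2.45 and 2.15 in Indirubin. All DSS libraries were below all Control libraries, but the log2 fold change of -2.05 ± 1.41 (unadjusted p = 0.167, adjusted p = 0.901) had a wide error. C5ar1, the receptor of C5a, had 0, 3 and 0 in Control, 7, 7 and 0 in DSS and 0, 6 and 19 in Indirubin as raw counts and was not tested.

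C3, which all routes cleave, had the most reads of the 34 genes in every library. It stood at 1271, 1421 and 749.9 in Control, 1285, 1682 and 3165 in DSS and 970.0, 1727 and 2485 in Indirubin. DSS-3 was the highest library and Control-3 the lowest, and all groups overlapped. The difference was 0.86 ± 0.39 (unadjusted p = 0.0465, adjusted p = 0.647) for DSS against Control, 0.62 ± 0.48 (unadjusted p = 0.218, adjusted p = 0.634) for Indirubin against Control and -0.24 ± 0.57 for Indirubin against DSS. The call in DSS against Control was lost without Control-1, Control-2, Control-3, DSS-2 or DSS-3, where the log2 fold change was 0.45 to 1.02. Within a library there were 10.7, 11.1 and 10.03 C3 reads per 100 Alb reads in Control, 19.7, 29.8 and 27.2 in DSS and 12.5, 37.98 and 44.3 in Indirubin. Every DSS library and every Indirubin library lay above the 3 Control libraries (exact permutation p = 0.1 for each, 0.3 after adjustment), with Indirubin-1 nearest to Control. Alb itself stood at 11920.5, 12755 and 7479 in Control, 6519.8, 5643 and 11642 in DSS and 7765, 4547 and 5606 in Indirubin normalized CPM, so the ratio moves with both genes. The sum of the 18 acute-phase genes was also higher in DSS than in Control, where 18 of 18 passed the unadjusted threshold and 9 an adjusted p under 0.05.

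Relative to C3, terminal pathway reads were fewer outside Control. Per 100 C3 reads there were 37.2, 40.6 and 58.9 terminal reads in Control, 23.2, 28.5 and 18.6 in DSS and 31.3, 7.52 and 5.48 in Indirubin. The DSS libraries were all below the Control libraries (exact permutation p = 0.1), and so were the Indirubin libraries (exact permutation p = 0.1), both 0.3 after adjustment. Indirubin-1 was above every DSS library, whereas Indirubin-2 and Indirubin-3 were the lowest of the 9, and Indirubin and DSS overlapped (exact permutation p = 0.4).

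**Figure D5:**
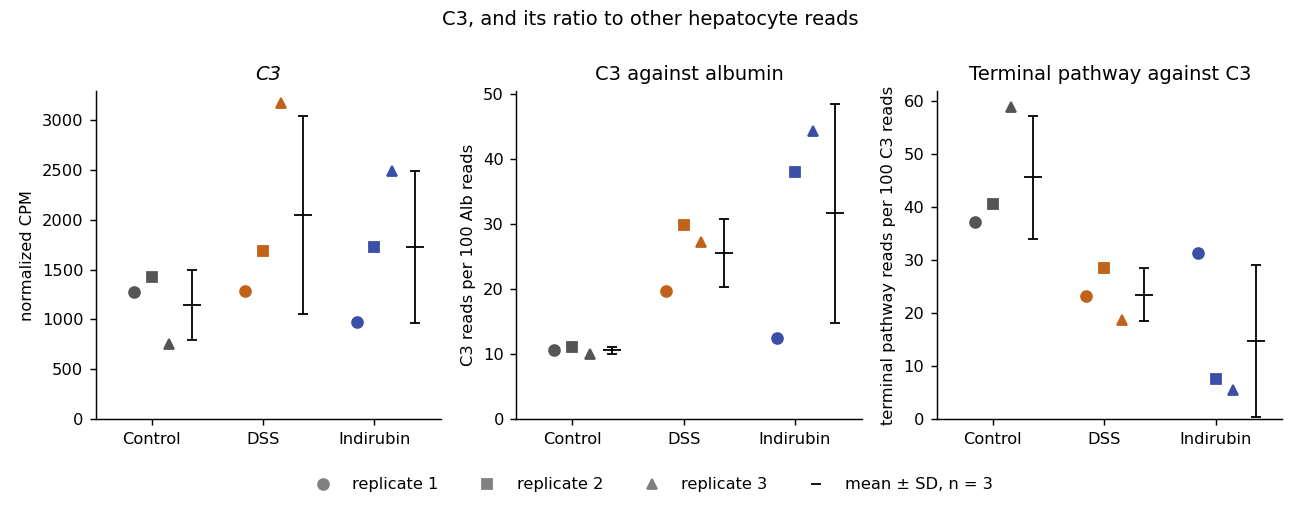
Left, normalized CPM of C3. Middle, C3 reads per 100 Alb reads. Right, reads of 6 terminal pathway genes per 100 C3 reads. Points are libraries of Control, DSS and Indirubin (x axis), and the black bar is the mean ± SD of 3 libraries. The C3 to Alb ratio lies between 10.03 and 11.1 in Control and above that range in the other 6 libraries.

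The hepatocyte genes of the classical pathway, C1ra, C1s1, C2 and C4b, did not pass the threshold in any comparison. C1ra and C1s1 encode the C1r and C1s proteases, and C2 and C4b the parts of the classical C3 convertase. C4b stood at 346, 521 and 289.7 in Control, 236, 367 and 454 in DSS and 196, 368 and 528 in Indirubin, with log2 fold changes of -0.09, 0.05 and -0.05 in DSS against Control, Indirubin against DSS and Indirubin against Control. C1ra, C1s1 and C2 had log2 fold changes of -0.44, -0.17 and -0.11 in DSS against Control and of 0.16, -0.12 and -0.47 in Indirubin against DSS. Their libraries overlapped throughout. C4b, C1ra and C1s1 each have a near-identical copy, so reads could be split between copies and these values are uncertain.

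In the alternative pathway, factor B was close to undetected. Cfb had 0, 0 and 1 in Control, 0, 0 and 19 in DSS and 10, 20 and 12 in Indirubin as raw counts. The Control libraries were at or under the floor of 3 counts, and against this floor, taken per library, Cfb was at least 2.45-fold higher in Indirubin. edgeR's fitted log2 fold change for it, 4.13 ± 1.53 (unadjusted p = 0.019, adjusted p = 0.252), depends on the prior count and is no bound. Its unadjusted call was lost without Control-1, Control-2 or Indirubin-2, where the log2 fold change was 3.54 to 3.99. Cfb and C2 both overlap the read-through gene Gm20547 on the minus strand of chromosome 17, which had 0 counts in every library, and how reads shared by overlapping genes were counted is not given in the sources used here, so the level of both is uncertain. Cfd, which encodes factor D and is made mainly by fat cells, had 9 counts in Indirubin-3 and 0 in the other libraries.

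Fluid-phase regulators keep the cascade in check. Of the 6, 5 were above 0 in DSS against Control (median 0.67) and all 6 were below 0 in Indirubin against DSS (median -0.84), with 2 and 0 past the unadjusted threshold (scaled by library size alone, 6 above 0 and 6 below 0). Of all genes, 3.46% were higher at that threshold and 50.6% were above 0 in DSS against Control, and 3.22% were lower and 56.7% above 0 in Indirubin against DSS. Without Indirubin-1 the log2 fold changes of the 5 regulators other than Cfhr2 against DSS were -0.84 to -0.63, none past the threshold, and that of Cfhr2 was -1.12 (unadjusted p = 0.0324). Vtn encodes vitronectin, which blocks insertion of the attack complex, and stood at 594, 622 and 334 in Control, 516, 962 and 1623 in DSS and 310.0, 499.9 and 775 in Indirubin. DSS-3 was the highest library, and the groups overlapped. The log2 fold change was 1.03 ± 0.41 (unadjusted p = 0.0245, adjusted p = 0.515) for DSS against Control, a call that was lost without Control-1, Control-3 or DSS-3, where the log2 fold change was 0.60 to 1.12. It was -0.97 ± 0.55 for Indirubin against DSS. Serping1, the inhibitor of C1r, C1s and the MASP proteases, stood at 104, 111 and 68.6 in Control, 83.7, 165 and 251 in DSS and 83.4, 101 and 130.2 in Indirubin. Its difference was 0.85 ± 0.37 (unadjusted p = 0.0385, adjusted p = 0.622) for DSS against Control, a call that was lost without Control-1, Control-2, Control-3, DSS-2 or DSS-3, where the log2 fold change was 0.47 to 0.95. It was -0.67 ± 0.46 for Indirubin against DSS.

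Clu (clusterin), Cfi (factor I, which cleaves C3b and C4b) and C4bp (its cofactor for C4b) had log2 fold changes of 0.71, 0.63 and 0.62 in DSS against Control and of -0.93, -0.64 and -0.90 in Indirubin against DSS, none past the threshold. Cfhr2, also a fluid-phase regulator, stood at 82.9, 94.9 and 54.1 in Control, 42.2, 48.9 and 105 in DSS and 50.7, 39.1 and 25.5 in Indirubin, and every Indirubin library was below every Control library. Its log2 fold change was -0.98 ± 0.39 (unadjusted p = 0.0261, adjusted p = 0.279) for Indirubin against Control, a call that was lost without Control-1, Control-2, Indirubin-2 or Indirubin-3, where the log2 fold change was -1.01 to -0.77. It has near-identical copies, so its reads could be split between them. Of the membrane regulators, Cd59a, which stops C9 from polymerizing, was lower without overlap in Indirubin than in DSS (4.76, 7.10 and 7.999 against 9.32, 10.8 and 15.9) and did not pass the threshold (-0.85 ± 0.45 (unadjusted p = 0.0813, adjusted p = 0.74), and -0.77 without Indirubin-1). Cd55, which splits the convertases, stood between 0.727 and 5.68 in all 9 libraries and did not differ past the threshold.

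Other genes of the pathway were taken from a list of 25 that does not include the 34, of which 14 were tested in each comparison. In DSS against Control, 2 were higher and 1 lower at the unadjusted threshold, in Indirubin against DSS 2 and 1, and in Indirubin against Control 2 and 3. Of all genes tested, 7.51%, 7.67% and 13.8% passed in either direction. C4a, the copy of C4b known for the sex-limited protein and listed as a lncRNA in the deposited annotation, was the 1 gene of the list to pass an adjusted p under 0.05 in any comparison. It stood at 13.8, 39.4 and 45.3 in Control, 2.01, 5.82 and 2.55 in DSS and 0.366, 4.65 and 1.55 in Indirubin. All DSS and all Indirubin libraries were below the Control libraries, with a log2 fold change of -3.24 ± 0.55 (unadjusted p = 4.59e-05, adjusted p = 0.0149) for DSS against Control and -3.79 ± 0.72 (unadjusted p = 0.000189, adjusted p = 0.0549) for Indirubin against Control (-3.50 without Indirubin-1). C4a and C4b are near-identical, so these counts depend on how shared reads were placed. Vsig4, a receptor of Kupffer cells for C3b, stood at 10.5, 14.9 and 9.46 in Control, 13.6, 10.8 and 10.7 in DSS and 27.8, 26.1 and 18.5 in Indirubin. Every Indirubin library was above every DSS and Control library, with a log2 fold change of 1.04 ± 0.39 (unadjusted p = 0.0192, adjusted p = 0.527) against DSS and 1.08 ± 0.37 (unadjusted p = 0.013, adjusted p = 0.213) against Control. Without Indirubin-1 both were 0.83, and the call against DSS was lost (unadjusted p = 0.058). C1rl, a C1r-like protease, was lower with -1.19 ± 0.42 (unadjusted p = 0.0152, adjusted p = 0.497) for Indirubin against DSS, and its libraries did not overlap (-1.55 without Indirubin-1).

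Of 18 regulators of complement transcription, 1 of 17 tested was lower in DSS against Control, 1 of 18 higher in Indirubin against DSS, and 4 of 17 higher and 1 lower in Indirubin against Control, all at the unadjusted threshold that 7.51%, 7.67% and 13.8% of all genes passed. Cebpb, an acute-phase factor that binds C/EBP motifs, stood at 8.13, 9.98 and 10.4 in Control, 10.3, 1.06 and 10.01 in DSS and 17.2, 20.6 and 21.2 in Indirubin, and every Indirubin library was above every other library (log2 fold change 1.45 ± 0.62 (unadjusted p = 0.037, adjusted p = 0.619) against DSS). Without Indirubin-1 it was 1.44, and the call was lost (unadjusted p = 0.0511). In that fit 3 other regulators were higher against DSS at the unadjusted threshold, Spi1 (1.48, unadjusted p = 0.00946), Nfkbia (1.57, unadjusted p = 0.0174) and Cebpd (1.88, unadjusted p = 0.0194), and 2 were lower, Irf1 (-1.96, unadjusted p = 0.0296) and Nfkb1 (-1.33, unadjusted p = 0.0311). Against Control, 5 were then higher and 2 lower. Without Indirubin-1, 10.4% and 17.5% of all genes passed in these comparisons.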

How the data were processed

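Liver RNA of 9 mice (Control, DSS and Indirubin, 3 each) was extracted with the RNeasy Plus Micro Kit, and libraries from 400 ng were sequenced on a DNBSEQ instrument. The authors aligned reads to the mouse genome (GRCm39 per the submitters' processing notes) and deposited raw counts per gene, without normalization, for 56748 genes. The aligner, counter, annotation and strand setting are not given in the sources used here. FPKM columns, lists of group-specific genes, and the authors' own fold changes and p-values in the deposited tables were not used.

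The quasi-likelihood test of edgeR 4.0.16 (R 4.3.3) was used on the counts (TMM, filterByExpr with a minimum count of 10 and minimum total of 15, glmQLFit, glmQLFTest, Benjamini-Hochberg over all genes tested), 6 libraries per comparison. SE is the log2 fold change divided by the square root of F. Nothing says more of the mice than separate labels, so p-values measure the spread between these samples. The threshold was 0.05 and the floor 3 counts. Ratios were compared by two-sided exact permutation tests (SciPy 1.17.1). Alternatives were DESeq2 size factors, library size alone, nuclear genes only, no filter, at least 10 counts in every library, the DESeq2 1.42.0 Wald test, all 9 libraries in one fit, a replicate block, and each library left out. The test was tested on simulated data: of planted genes that passed the filter it called 80% for DSS against Control (7386 genes), 82.7% for Indirubin against DSS (9312 genes) and 80.2% for Indirubin against Control (8716 genes), with 3 of 123, 5 of 139 and 12 of 146 calls false. In the last of these the share of false calls was above 0.05. The planted differences were larger than most differences of the members, and the simulated spread was the same for every gene. These shares therefore do not give the power for smaller differences. No libraries were identical.

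The members, lists, motifs and tests were chosen with earlier results of these data known. All 34 members are accounted for. Values per library are given for members at an unadjusted p under 0.05 in any comparison, the C1q chains, C3, C4b, Cfb, C9, the receptors and those missing the filter. Of other lists, up to 3 genes each way with the smallest p may be named. Values of Masp1, C8g, Cfp, Fcna, Alb and Clec4f, and those of Cd59a, were added after they were seen. Promoters are from RefSeq (GRCm38.p6), and all were searched. The rule for showing them took the 9 members at an unadjusted p under 0.05 in more than 1 comparison. Of these, the promoters of C6, Mbl1, Mbl2 and Colec11 are not shown. That of Colec11 held the STAT letters, and the others held none of the motifs. C1qb and Fcna are shown outside the rule. One hepatocyte marker of 12 is not analysed here, and values of some listed genes are not reported here.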

Additional observations from a re-analysis of the deposited data

How the results depend on the processing

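The count of complement genes at an unadjusted p under 0.05 moved by over 1.5 times with some settings. It was 5 in DSS against Control, where 7.51% of all genes passed, and 8 with library size alone (12.2% of all genes). It was 2 with all 9 libraries in one fit (6.87%) and 2 with the replicate block (6.24%), in both of which C3, Vtn and Serping1 lost their calls. It was 9 in Indirubin against DSS and 11 in Indirubin against Control, where 7.67% and 13.8% of all genes passed. With library size alone it was 5 and 6, where 5.58% and 27.2% of all genes passed. Leaving out 1 library gave 2 to 9, 3 to 14 and 5 to 14 in the 3 comparisons. Of all genes, 4.88 to 7.72%, 4.89 to 10.5% and 9.58 to 17.5% passed in those fits. At an adjusted p under 0.05 the count was 0 in each comparison, where 53, 0 and 19 of all genes passed. It was 1 in DSS against Control with no filter, with a minimum of 10 counts in each library, and under the DESeq2 Wald test. Of all genes, 125, 84 and 143 passed in these fits. In Indirubin against DSS it was 2 with no filter and 1 with DESeq2, where 156 and 80 of all genes passed. In Indirubin against Control it was 1 with no filter and 2 with DESeq2, where 379 and 316 of all genes passed. Leaving out 1 library gave 0 to 1, 0 to 2 and 0 to 6, where 12 to 64, 0 to 134 and 1 to 465 of all genes passed. The fit without a filter tested 18484 to 23034 genes.

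Replicate numbers did not pair the samples: deviations of same-numbered libraries correlated at -0.03 to 0.04. With the replicate block the count was 9 in Indirubin against DSS and 11 in Indirubin against Control, where 7.51% and 12.8% of all genes passed. Of 1277 values of single members under alternatives, 92 lost and 55 gained an unadjusted p under 0.05, and none past it in either fit changed sign. Another 95 changed sign without passing it in either fit, 28 of them with library size alone. The cause was not tested. Members such as Cfd, C7, C5ar1 and Cfb had too few counts to be measured well. Nuclear counts were 569044 to 2132208 per library, and what part this had in their low counts was not tested.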
